A study of Sus scrofa with 55 samples.

Results

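The mitochondrial ribosomal proteins were followed in single pig oocytes as the genes whose pig symbol begins with MRPL or MRPS and a digit. The rule found 64 genes among the 25880 identifiers of the deposited count table. They were 24 proteins of the large subunit with bacterial relatives, 16 large-subunit proteins found only in mitochondria, 12 small-subunit proteins with bacterial relatives, 9 small-subunit proteins found only in mitochondria, and MRPS18A, MRPS18B and MRPS30, whose names do not give their place in the ribosome. At least 1 count was found for 62 of them, and all 62 passed the filter on low counts. MRPL43 and MRPL54 had no count in any oocyte.

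The mitochondrial ribosome is built in the cell from proteins encoded in the nucleus and RNA encoded in the mitochondrial genome. It translates the few proteins that the mitochondrial genome encodes, all of them subunits of the respiratory chain and of ATP synthase. Oocytes hold more mitochondria than other cells of the ovary and pass them to the embryo. In humans, inherited defects of several of these subunits impair respiration, and defects of MRPS22 are known in ovarian insufficiency.

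The data were counts from 55 single oocytes at 5 antral follicle stages, which numbered 11 (stage 1), 12 (stage 2), 11 (stage 3), 11 (stage 4) and 10 (stage 5). All came from 4 wild-type (WT) pubertal Landrace Yorkshire gilts aged 208 to 210 days, whose follicles were stimulated with pregnant mare serum gonadotropin (PMSG, a hormone that drives follicle growth; 5 IU) 48 h before the ovaries were taken. Gilt 201 gave 14 oocytes, gilt 205 gave 9, gilt 801 gave 12 with none at stage 5, and gilt 803 gave 20. Only the cytoplasm was sequenced, by Smart-seq2 (full-length cDNA, here amplified by 16 cycles), and the labels describe the stages by number only.

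Total counts ran between 151104 and 38282850 per oocyte, and 3 oocytes, all of gilt 803, were under 1000000 counts. The 13 mitochondrially encoded protein genes took between 2.10% and 91.8% of an oocyte's counts. Levels are therefore given as counts per 1000000 of the counts that were not from those 13 genes, called CPM here, unless the total of all counts is named. In 13 libraries, 12 of them from gilt 803 and 1 from gilt 801, granulosa markers held more counts than oocyte markers, against the oocyte label. In these granulosa-rich libraries the 19 granulosa markers summed to between 5192 and 31203 CPM, against 51.6 to 20713 CPM in the other 42. AMH was at 0 in all 55. AMHR2, LHCGR, PTX3 and STAR were found in 1, 1, 1 and 4 of the 13, against 9, 11, 13 and 23 of the 42. The median of PTGS2 was also lower in the 13, at 0.064 CPM against 0.356 CPM, and that of TNFAIP6 was 0 in both. The medians of SERPINE2, INHA, CYP11A1, GJA1, HSD17B1, FST, INHBA, FSHR, INHBB, NR5A2, HAS2 and IHH were higher in the 13. The 14 oocyte markers, all of them detected, summed to between 41.2 and 5151 CPM in granulosa-rich libraries and between 1439 and 339700 CPM in the others. Within a library, fewer attached cells and less RNA per cell cannot be told apart.

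The summed level of the family lay between 1231 and 12472 CPM in single oocytes, and the stages overlapped. At stage 1 the lowest, median and highest oocytes were at 1715, 4250 and 12472 CPM. At stage 2 they were at 2670, 4721 and 12009 CPM, and at stage 3 at 2169, 4279 and 6582 CPM. At stage 4 they were at 3141, 6828 and 11752 CPM, and at stage 5 at 1231, 3937 and 7243 CPM. Stage 4 had the highest median and stage 5 the lowest, and the ranges of all 5 stages shared the values between 3141 and 6582 CPM. The stage 4 oocytes held 4 of the granulosa-rich libraries and a median mitochondrially encoded share of 9.05%, while this median was over 50% at the other stages. The part of either in the stage 4 level was not tested.

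The total used for scaling changed the picture. Per 1000000 of all counts, the family's median was 1928 CPM in stage 1 oocytes, 1227 CPM in stage 2, 1012 CPM in stage 3, 4431 CPM in stage 4 and 920 CPM in stage 5. On that scale single oocytes spread between 218 and 11447 CPM. The mitochondrially encoded counts are part of that total.

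**Figure D1:**
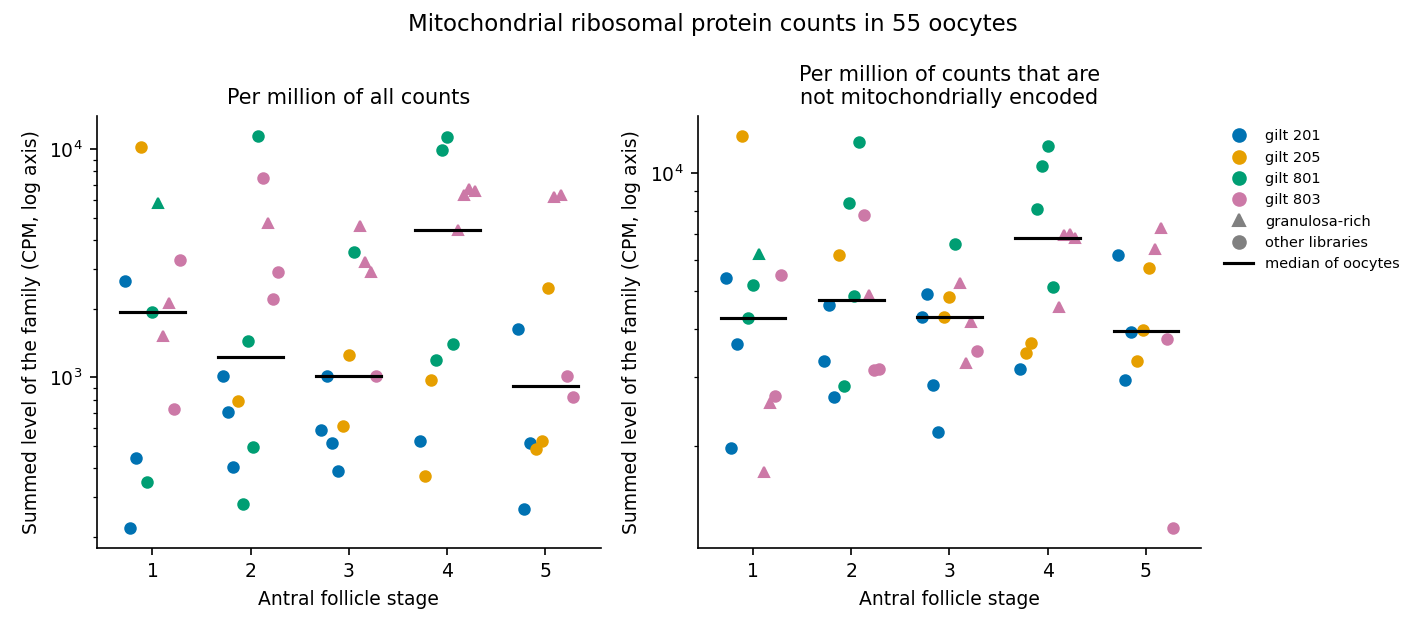
Summed level of the mitochondrial ribosomal protein genes in each of 55 oocytes by antral follicle stage, per 1000000 of all counts (left) and per 1000000 of the counts that were not mitochondrially encoded (right), both on log axes. Colours are gilts, triangles are granulosa-rich libraries and black lines are the medians of oocytes. The medians lie between 920 and 4431 CPM on the left and between 3937 and 6828 CPM on the right, and the stages overlap in both.

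The members differed far more among themselves than the family did over stages. By mean CPM of all counts over the 19 sums of oocytes of 1 gilt and stage, 3 members were over 100 CPM, 15 between 50 and 100, 38 between 10 and 50, 2 between 2 and 10, and 6 under 2. The median member was detected in 45 of 55 oocytes, and 14 members were detected in at least 50. MRPL37 was the member detected in every oocyte. By class the median of this mean was 38.1 CPM for large-subunit proteins with bacterial relatives, 20.9 CPM for mitochondria-specific large-subunit proteins, 26.2 CPM for small-subunit proteins with bacterial relatives and 27.4 CPM for mitochondria-specific small-subunit proteins.

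MRPL37 (ENSSSCG00000032083), a mitochondria-specific protein of the large subunit, had the highest mean, 554 CPM of all counts. Its lowest, median and highest oocytes were at 5.55, 771 and 3695 CPM at stage 1 and at 26.6, 1049 and 3518 CPM at stage 2. They were at 1.06, 670 and 1564 CPM at stage 3, at 281, 623 and 3544 CPM at stage 4, and at 20.6, 566 and 1290 CPM at stage 5. MRPL37 was thus nearly missing from a few libraries, other than at stage 4, and abundant in most.

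MRPS14 (ENSSSCG00000031435), a small-subunit protein with a bacterial relative, came next with a mean of 256 CPM of all counts. Its median was 319 CPM in stage 1 oocytes, 542 CPM in stage 2, 515 CPM in stage 3, 374 CPM in stage 4 and 305 CPM in stage 5, and the highest oocyte reached 1844 CPM. MRPL22, a protein that lines the exit tunnel for the new peptide, followed with a mean of 100.4 CPM of all counts and stage medians of 173, 150, 114, 175 and 152 CPM. The median of MRPL22 moved least with stage among these 3, and its range was from 0 to 761 CPM. In the deposited length-scaled values, which allow genes of different length to be compared, MRPL37 had a median rank of 1 among the 58 members listed there, MRPL22 of 3 and MRPS14 of 4.

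The remaining members among the 8 highest were MRPS25, MRPL17, MRPS6, MRPL20 and MRPL3. MRPS25, a mitochondria-specific small-subunit protein, had a mean of 84.8 CPM of all counts and was found in 49 oocytes. MRPL17 and MRPL20, large-subunit proteins with bacterial relatives, had means of 71.8 and 69.2 CPM of all counts. MRPS6, a small-subunit protein with a bacterial relative, had 70.4 CPM, and MRPL3, which lies close to the peptidyl transferase centre, had 62.4 CPM. RefSeq lists a pseudogene that overlaps MRPL22 and a pseudogene that overlaps MRPL3. Whether these pseudogenes are copies of the members, or share reads with them, was not tested.

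MRPL37 and MRPS14 together held a median of 29.6% of the family's counts in an oocyte. This share lay between 0.215% and 22.0%, with a median of 5.35%, in the 13 granulosa-rich libraries, and between 0.804% and 52.3%, with a median of 36.1%, in the other 42. MRPL37 alone held between 0.215% and 17.5% in granulosa-rich libraries, with a median of 4.03%, and between 0.0369% and 36.6% in the others, with a median of 23.1%. For MRPS14 the share was between 0 and 4.67% in granulosa-rich libraries, with a median of 0.635%, and between 0.456% and 19.8% in the others, with a median of 12.4%. Both members thus took a small part of the family in granulosa-rich libraries and a large one in most others, although the ranges overlapped.

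The pattern was also present within gilt 803. There MRPL37 had a median share of 4.48% in 12 granulosa-rich libraries and 15.0% in the other 8, and MRPS14 had 0.606% in granulosa-rich libraries and 10.4% in the others. Over all 55 oocytes the share of MRPL37 correlated with the log2 oocyte marker level with a Pearson r of 0.74 and a Spearman rho of 0.71, and that of MRPS14 with 0.72 and 0.63. Without the granulosa-rich libraries the values over 42 oocytes were 0.63 and 0.50 for MRPL37 and 0.41 and 0.24 for MRPS14. The 2 measures in such a correlation come from the same library. In 3 libraries that were not granulosa-rich, oocytes 3 and 4 of gilt 201 at stage 3 and oocyte 3 of gilt 803 at stage 2, the MRPL37 share was under 1%. The last of these had the lowest oocyte marker level of the 42, at 1439 CPM, and the highest immune marker level of all 55, at 14457 CPM. In the pair of gilt 201 the immune markers were at 165 and 1.74 CPM and the oocyte markers at 15409 and 8977 CPM.

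**Figure D2:**
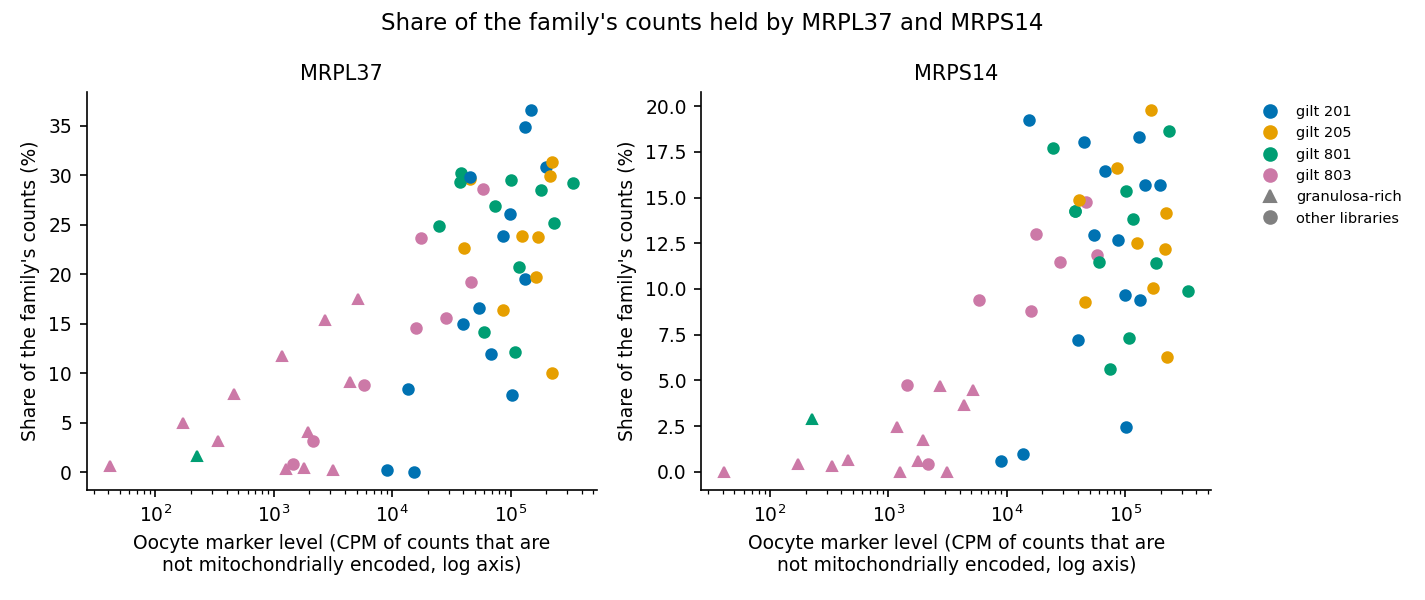
Share of the family's counts held by MRPL37 (left) and MRPS14 (right) in each oocyte, against the summed level of 14 oocyte markers on a log axis. Triangles are granulosa-rich libraries, which lie at or under 17.5% for MRPL37 and at or under 4.67% for MRPS14, while the other libraries reach 36.6% and 19.8%.

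For the family without MRPL37 and MRPS14 the summed level was between 1698 and 7222 CPM in granulosa-rich libraries, with a median of 4183 CPM, and between 1006 and 7622 CPM in the others, with a median of 2892 CPM. By median level, 30 members were higher in granulosa-rich libraries, 28 were lower and 6 had equal medians. For the whole family the ratio of medians of granulosa-rich libraries to the others was 1.22, and within gilt 803 it was 1.52. The same ratio was 6.77 for 44 detected cytosolic ribosomal protein genes and 2.93 for 53 detected nuclear-encoded genes of oxidative phosphorylation, and within gilt 803 it was 2.10 and 2.09. These ratios were not tested, since the libraries were sorted by their own markers.

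Genes with MRPL and with MRPS symbols were measured in a similar proportion in most oocytes. They were split by symbol only, and MRPS18A, MRPS18B and MRPS30, whose names do not give their place in the ribosome, went with MRPS. Counts of MRPL genes were between 0.139 and 2.40 times those of MRPS genes in the granulosa-rich libraries, with a median of 1.65, and between 1.03 and 3.99 times in the other 42, with a median of 1.86. The ratio of 0.139 came from oocyte 2 of gilt 803 at stage 1, which held 466 counts of the family in all. On log2 scales the summed MRPL and MRPS levels correlated within gilts, with a Pearson r of 0.61 in gilt 201 (14 oocytes), 0.91 in gilt 205 (9), 0.95 in gilt 801 (12) and 0.49 in gilt 803 (20). Without MRPL37 and MRPS14 these were 0.76, 0.86, 0.96 and 0.49. Both sums in an oocyte share its library and its total.

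The number of members found in an oocyte was compared at 1 depth. At an equal depth of 800000 counts that were not mitochondrially encoded, which 52 oocytes reached, between 21.7 and 61.7 members were detected, with a median of 52.3. The median was 57.1 for stage 1 oocytes, 50.9 for stage 2, 43.5 for stage 3, 56.0 for stage 4 and 45.5 for stage 5. The lowest value was in oocyte 4 of gilt 201 at stage 3, where 26 members had a count at full depth. Without thinning, the same oocytes showed between 23 and 62 members with a median of 55, so the spread between oocytes was about as wide at equal depth.

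The stages were compared on the 19 gilt-by-stage sums, in 1 edgeR model with gilt kept as a term. No member was called between stage 5 and stage 1 at an adjusted p under 0.05, as for all 15637 genes tested (0% called). At an unadjusted p under 0.05 there were also 0 members, with a background of 5.37%. DESeq2 called 0 members, with a background of 2.35%. Summed over oocytes, the family was at 4903 CPM in gilt 201, 4699 CPM in gilt 205 and 4190 CPM in gilt 803 at stage 5, against 4516 CPM in gilt 201, 12472 CPM in gilt 205, 5579 CPM in gilt 801 and 4086 CPM in gilt 803 at stage 1. In gilts 201 and 803 stage 5 was slightly above stage 1, and in gilt 205 it was well below its only stage 1 oocyte.

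The 62 fitted log2 changes between stage 5 and stage 1 had a median of -0.22, with 25 positive and 37 negative, while the median over all genes was -0.27 with 42.7% positive. The median standard error of a member was 1.06 on this log2 scale, so a change of that size in 1 member was not detectable at this spread between gilts. The family's median was -0.81 without gilt 201, with 42 of 62 negative, -0.59 without granulosa-rich libraries, with 48 of 62 negative, and -0.41 without gilt 801. It was positive at 0.25 without gilt 205, at 0.27 with each oocyte taken as a library and at 0.07 without the 6 libraries that were not granulosa-rich and had a mitochondrially encoded share under 20%. Neither the sign nor the size of this median was therefore stable. The medians over all genes under these alternatives are not given here, so a shift particular to the family cannot be read from these values. Over the same contrast the fitted median was -0.69 for granulosa markers, with 4 of 18 positive, -3.73 for theca markers, with 1 of 11 positive, and -4.20 for immune markers, with 1 of 14 positive. Their part in the members' values was not tested.

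Among members with a mean of at least 10 CPM of all counts, the largest negative fitted changes between stage 5 and stage 1 were in MRPS12, MRPS5, MRPL10 and MRPL34. MRPS12, a protein of the decoding centre, had a lowest, median and highest level of 0, 0.99 and 475 CPM at stage 5, against 0, 1.84 and 150 CPM at stage 1. Its fitted change was -1.93 ± 1.60 (SE; edgeR adjusted p = 0.981), while its mean over gilts was 59.2 ± 72.2 CPM at stage 5 (SD over 3 gilts) and 51.4 ± 35.8 CPM at stage 1 (SD over 4 gilts). The sign of this change turned without gilt 205, where it was 0.24, and without gilt in the model, where it was 0.63. MRPS5, which in bacteria helps to keep decoding accurate, was at 12.5 ± 5.71 CPM at stage 5 (SD over 3 gilts) and 59.2 ± 29.4 CPM at stage 1 (SD over 4 gilts), with a fitted change of -1.84 ± 1.18 (SE; edgeR adjusted p = 0.934). The single-oocyte levels of MRPS5 overlapped, at 0 to 55.1 CPM at stage 5 and 0 to 545 CPM at stage 1. The 545 CPM came from 165 counts in a granulosa-rich library of 343284 counts. MRPL10, the base of the stalk that recruits translation factors, was at 13.2 ± 14.8 CPM at stage 5 (SD over 3 gilts) and 55.5 ± 47.6 CPM at stage 1 (SD over 4 gilts), with a fitted change of -1.59 ± 1.13 (SE). MRPL34, a short large-subunit protein with a bacterial relative, had a fitted change of -1.38 ± 1.30 (SE).

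The largest positive ones were in MRPL2, MRPL44, MRPL47 and MRPL46. MRPL2, a core protein near the peptidyl transferase centre, was at 89.1 ± 71.5 CPM at stage 5 (SD over 3 gilts) and 27.5 ± 23.6 CPM at stage 1 (SD over 4 gilts), with a fitted change of 1.83 ± 1.19 (SE; edgeR adjusted p = 0.935). Its single-oocyte median was 11.7 CPM at stage 5, against 1.39 CPM at stage 1, and both stages began at 0. MRPL44, a mitochondria-specific protein with a ribonuclease III-like fold, had medians of 11.9 CPM at stage 5 and 8.60 CPM at stage 1 and a fitted change of 1.13 ± 1.38 (SE). The fitted change was 1.03 ± 1.48 for MRPL47, a large-subunit protein with a bacterial relative, and 0.95 ± 1.18 for the mitochondria-specific MRPL46 (SE). None of the 8 changes passed the test, and each lay within 2 standard errors of 0. The fixed members MRPL12, part of the stalk, and MRPS22, a mitochondria-specific small-subunit protein, had changes of -0.18 ± 0.90 and 0.11 ± 1.38 (SE).

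**Figure D3:**
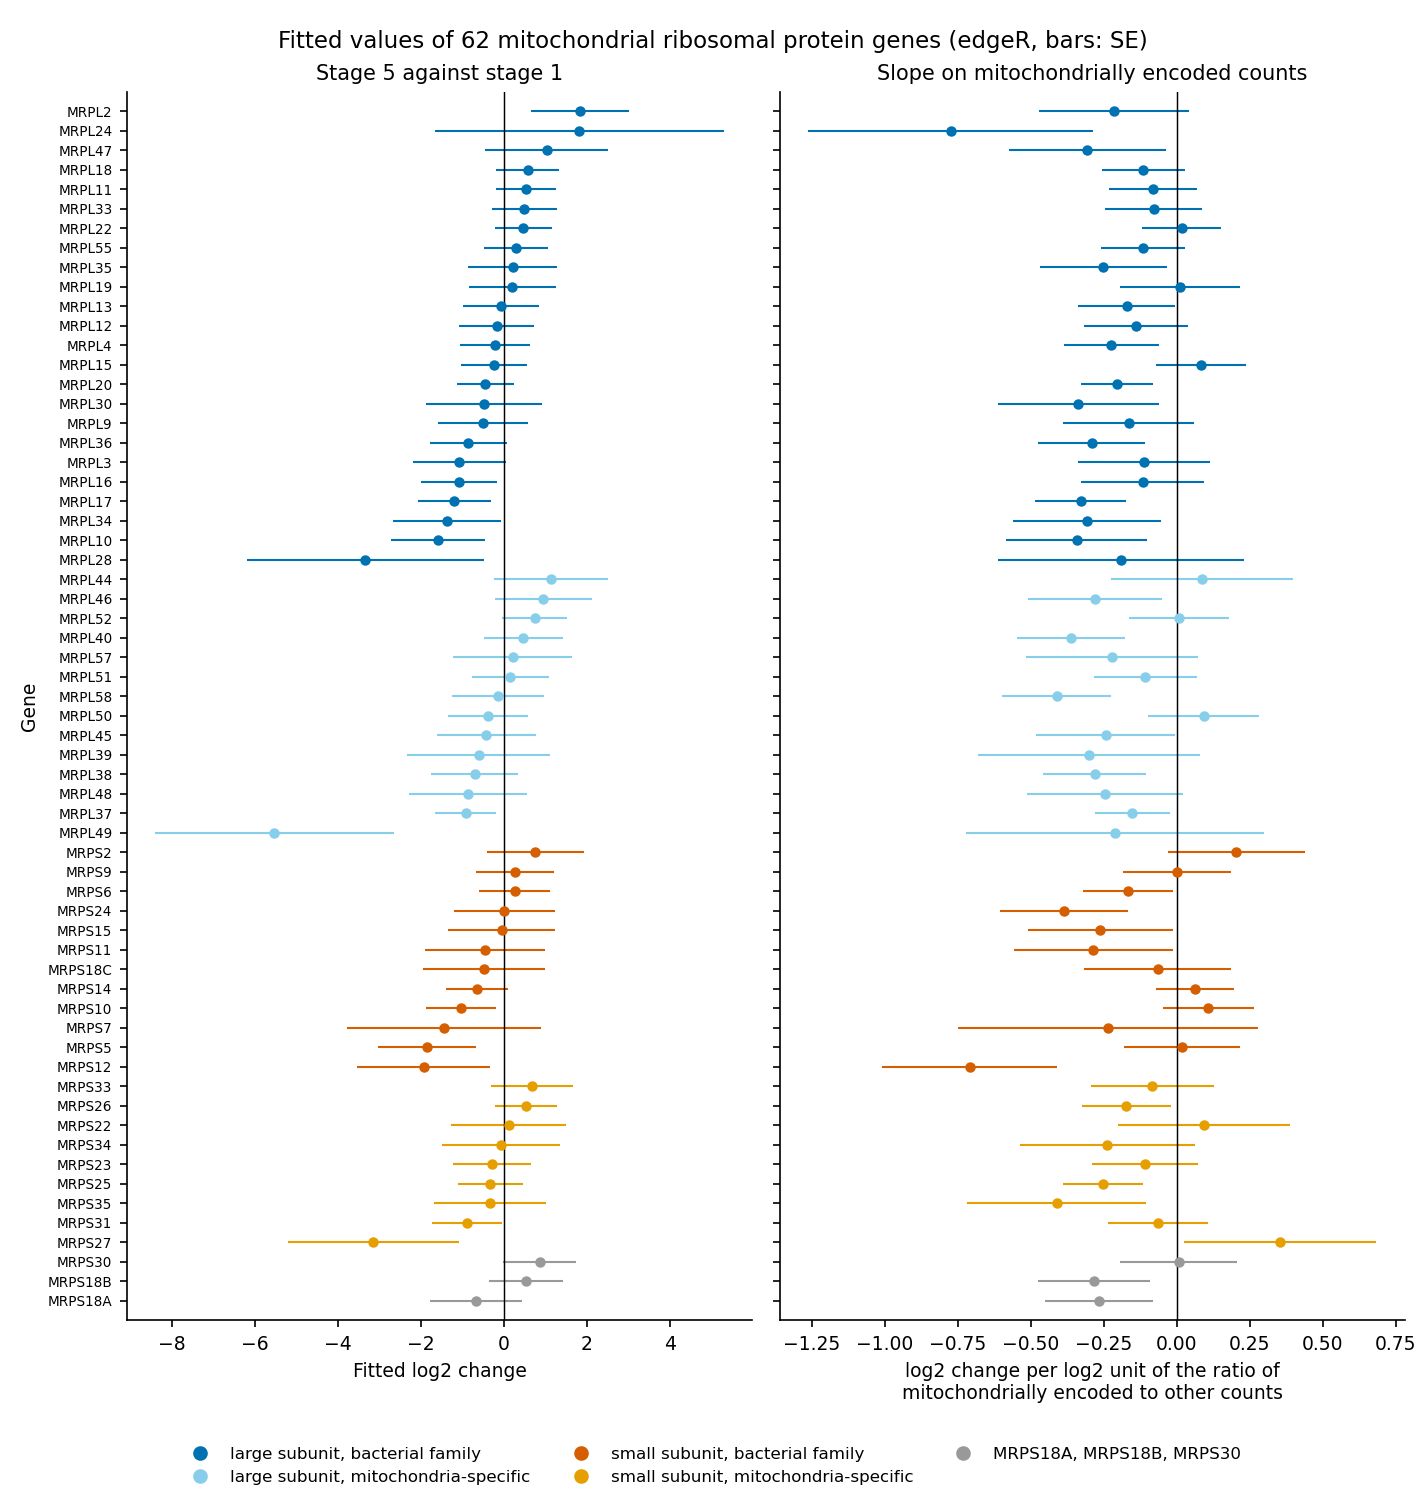
Fitted log2 change between stage 5 and stage 1 (left) and fitted slope on the log2 ratio of mitochondrially encoded to other counts (right) for 62 members, with bars of 1 standard error, coloured by class. The points on the left spread on both sides of 0 with 25 positive, and on the right 48 of 62 are negative.

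Neighbouring stages and the trend over stages gave the same count of called members. It was 0 of 62 for stage 2 against stage 1, stage 3 against stage 2, stage 4 against stage 3, stage 5 against stage 4 and all stages at once, each with a background of 0%, and 0 for the trend with a background of 0.0128%. For all stages at once 0 members had an unadjusted p under 0.05, with a background of 5.37%. DESeq2 also called 0 members in each of these, with backgrounds of 2.65%, 1.99%, 1.71%, 1.38%, 0.34% and 1.07% in the same order. At an unadjusted p under 0.05, MRPS12 stood out for stage 2 against stage 1 (-3.67 ± 1.57, SE), MRPL49 for stage 3 against stage 2, MRPL38 for stage 4 against stage 3 (2.17 ± 0.95, SE) and MRPL10 for stage 5 against stage 4 (-2.67 ± 1.23, SE), which is 1 member in each. The unadjusted backgrounds were 6.61%, 4.66%, 4.13% and 2.98%, so 1 of 62 is no more than the share of all genes. For the trend MRPL49 was the member at this level, with a background of 5.76%. MRPL49 had only 667 counts over all oocytes and was found in 17 of 55.

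The trend gives a fitted log2 change per stage. The largest negative values were in MRPS5 at -0.33 ± 0.23, MRPS12 at -0.32 ± 0.32, MRPL34 at -0.28 ± 0.26 and MRPL17 at -0.27 ± 0.18 (SE). The largest positive ones were in MRPL2 at 0.25 ± 0.24, MRPL44 at 0.22 ± 0.27, MRPL47 at 0.19 ± 0.32 and MRPS2 at 0.19 ± 0.23 (SE). All 8 were within 2 standard errors of 0. MRPL37, the most abundant member, had -0.25 ± 0.15 (SE), and the family's median was -0.05 beside -0.06 for all genes. Without granulosa-rich libraries the family's median was -0.18 with 10 of 62 positive, beside -0.05 for all genes. It was -0.13 without gilt 803, 0.08 without gilt 205, 0.05 without the 6 low-share libraries and 0.16 with each oocyte taken as a library, where 44 of the 60 members tested were positive and all genes had 0.03.

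Between stage 5 and stage 1, no gene was called among the lists of genes that the mitochondrial ribosome works with, which held 14 mitochondrial translation factors, 21 ribosome assembly factors, 15 genes of mitochondrial transcription and RNA handling, 17 mitochondrial tRNA synthetases, 8 regulators of mitochondrial biogenesis and 4 subunits with other names. The median fitted log2 change was -0.35 for the translation factors, -0.06 for the assembly factors, 0.13 for transcription, -0.60 for the tRNA synthetases, 0.99 for the biogenesis regulators and -0.28 for the otherwise named subunits. The 13 mitochondrially encoded genes had a median of -0.77 with 0 positive and 0 called, the cytosolic ribosomal proteins -0.80 with 1 of 43 positive and 0 called, and the nuclear-encoded oxidative phosphorylation genes 0.06 with 30 of 53 positive and 0 called.

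The relation to the mitochondrially encoded counts of the same oocyte was described within gilts. On log2 scales the family's level in CPM of all counts correlated with the ratio of mitochondrially encoded to other counts with a Pearson r of -0.90 in gilt 201, -0.98 in gilt 205, -0.95 in gilt 801 and -0.80 in gilt 803. The mitochondrially encoded counts are part of that total, so this scale by itself gives a negative value. With CPM of the other counts, r was -0.50 in gilt 201 (14 oocytes), -0.84 in gilt 205 (9), -0.73 in gilt 801 (12) and -0.42 in gilt 803 (20), and Spearman's rho was -0.45, -0.40, -0.81 and -0.42. With all oocytes taken, those with more mitochondrially encoded RNA thus had lower levels of the family in each gilt. In gilt 205 this rested on few oocytes: without the 1 of lowest share r was -0.40 and rho -0.14, and without the 2 oocytes farthest from the median ratio r was -0.038 and rho 0.071. Without these 2 farthest oocytes r was -0.49 in gilt 201, -0.55 in gilt 801 and -0.40 in gilt 803, and without the 3 low-share libraries it was -0.32 in gilt 801. Both measures share the library and the total of the other counts.

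**Figure D4:**
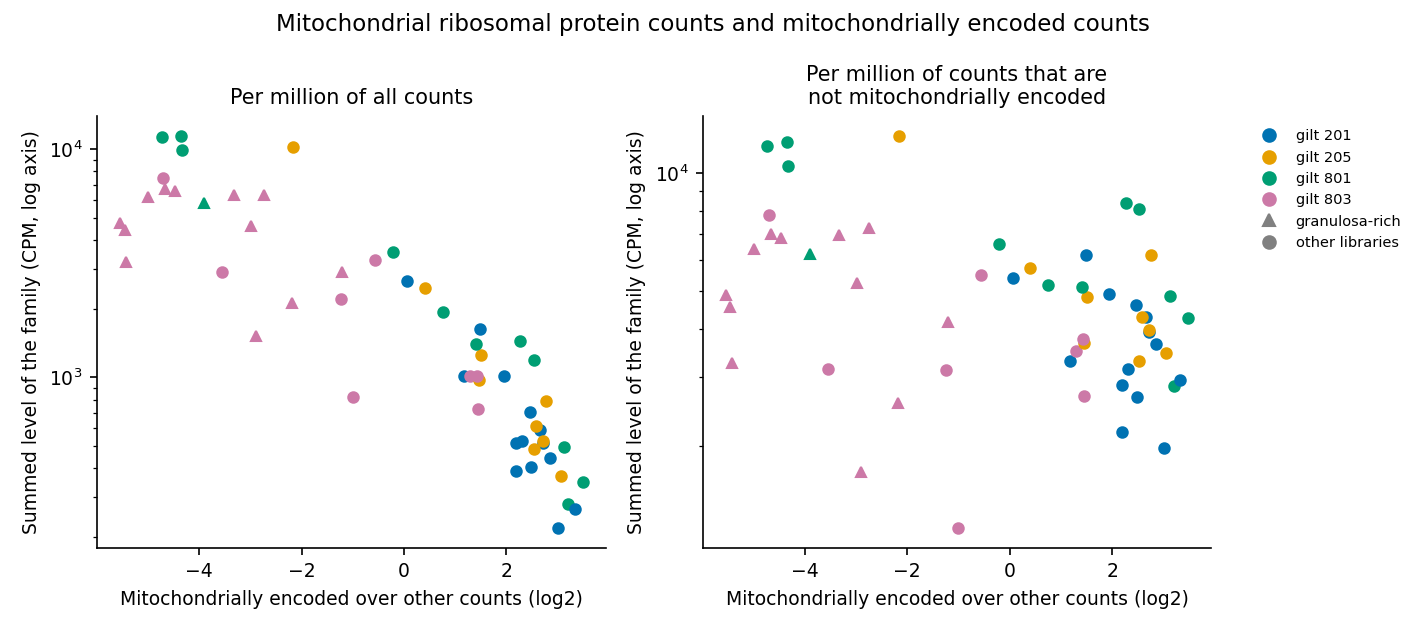
Summed level of the family in each oocyte against the log2 ratio of mitochondrially encoded to other counts, per 1000000 of all counts (left) and per 1000000 of the other counts (right), on log axes. The steep fall on the left is much weaker on the right, where the highest levels belong to 1 oocyte of gilt 205 and 3 of gilt 801 at low ratios.

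The 2 most abundant members did not take part evenly. MRPL37 had an r with the ratio of 0.10 in gilt 201, -0.74 in gilt 205, -0.06 in gilt 801 and 0.10 in gilt 803, and MRPS14 had 0.38, -0.67, -0.42 and 0.39. The family without these 2 members had an r of -0.75, -0.77, -0.77 and -0.57. Its Spearman's rho was -0.77, -0.37, -0.89 and -0.61, so in gilt 205 the rank relation was weaker than r. The nuclear-encoded oxidative phosphorylation genes gave an r of -0.56, -0.72, -0.74 and -0.57 in the same gilts. For the cytosolic ribosomal proteins r was -0.64, -0.63, -0.17 and -0.55. In gilt 801 Spearman's rho was 0.0070 for the cytosolic ribosomal proteins, and without the granulosa-rich library r was 0.079. In that gilt r was -0.70 for these proteins without the low-share libraries, against -0.79 for oxidative phosphorylation and -0.32 for the whole family. Spearman's rho was then -0.67, -0.83 and -0.57 in the same order. Without the oocyte of lowest share in gilt 205, r there was 0.050 for oxidative phosphorylation and 0.077 for the cytosolic ribosomal proteins. No difference between the lists was tested.

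In the edgeR fit on the 19 sums, with gilt as a term and the 13 mitochondrially encoded genes left out, 0 of 62 members were called for the slope on this ratio, with a background of 0.0682% (10 of 14671 genes). DESeq2 also called 0, with a background of 0.954%. At an unadjusted p under 0.05 there were 3 members, MRPS12, MRPL58 and MRPL17, with a background of 5.92%. The fitted slopes of the members had a median of -0.18 per log2 unit of the ratio and 14 of 62 were positive, while over all genes the median was -0.04 and 44.7% were positive. Nuclear-encoded oxidative phosphorylation genes had a median slope of -0.17 with 4 of 53 positive, and cytosolic ribosomal proteins -0.14 with 0 of 43 positive. A negative median was thus not particular to the family. The 8 biogenesis regulators had 0.13 with 5 positive. Under the other settings the members' median lay between -0.23 and -0.08. The oocyte markers had a median of 0.18 with 9 of 14 positive and ZP2, ZP3 and ZP4, the zona pellucida proteins of the egg coat, called higher, while granulosa markers had -0.25 with 3 of 18 positive and immune markers -0.66 with 2 of 14 positive. With the granulosa marker level as a further term the members' median was -0.15, again with 14 of 62 positive.

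The largest negative slopes among members of at least 10 CPM were in MRPS12, MRPS35, MRPL58 and MRPS24. MRPS12 had -0.71 ± 0.30 (SE; edgeR adjusted p = 0.779), and with each oocyte taken as a library it had -0.77 with an adjusted p of 0.0335. That fit treats oocytes of 1 gilt as independent, and it called 130 of 11227 genes. The slope was -0.41 ± 0.31 for the mitochondria-specific MRPS35, -0.41 ± 0.19 for MRPL58, a hydrolase that can free stalled peptides, and -0.39 ± 0.22 for MRPS24, a small-subunit protein with a bacterial relative (SE). The largest positive ones were 0.20 ± 0.23 for MRPS2, 0.11 ± 0.16 for MRPS10, 0.09 ± 0.29 for MRPS22 and 0.09 ± 0.19 for MRPL50 (SE), all smaller than their error.

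MRPS12 (ENSSSCG00000031860) had a count in 33 of 55 oocytes. Its level was between 0 and 475 CPM in granulosa-rich libraries, with a median of 46.6 CPM and a count in 8 of 13, and between 0 and 179 CPM in the others, with a median of 1.17 CPM and a count in 25 of 42. By gilt the medians were 0.907 CPM in gilt 201, 0 in gilt 205, 7.93 CPM in gilt 801 and 11.8 CPM in gilt 803. In gilt 205 it was found in 3 of 9 oocytes, none above 48.9 CPM. In the edgeR test of differences among the 4 gilts, 0 of 62 members were called with a background of 2.17%, and 3 members, MRPS12, MRPS14 and MRPL17, had an unadjusted p under 0.05 with a background of 12.6%. MRPS12 came nearest (adjusted p = 0.169), and DESeq2 called it (adjusted p = 0.0343) as its only member, with a background of 7.61%. Of the 13 granulosa-rich libraries, 12 came from gilt 803, so the animal and the cells in the library can be told apart only in part here.

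Of the libraries that were not granulosa-rich, those with the lowest mitochondrially encoded share were looked at by name. Of the 6 under 20%, 3 came from gilt 801, oocyte 4 at stage 2 and oocytes 2 and 3 at stage 4. Their shares were between 3.62% and 4.73%, against 46.3% to 91.8% in the other 8 libraries of gilt 801 that were not granulosa-rich. The family was at 10422, 11752 and 12009 CPM in these 3, against 2852 to 8377 CPM in the 8 others, and the groups did not overlap. All 62 members were found in each of the 3, and between 39 and 61 in the others.

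Of the 62 members, 13 were higher in all 3 low-share libraries of gilt 801 than in all 8 others, with a background of 11.4% of 14671 genes. MRPL37 was at 3518, 2594 and 3544 CPM in these 3 libraries, against 623 to 2469 CPM in the 8 others. MRPS14 was at 1711, 1844 and 1678 CPM in the 3, against 374 to 1286 CPM in the 8. The others of the 13 were MRPL22, MRPL11, MRPL18, MRPL9, MRPL4, MRPS24, MRPS18B, MRPS23, MRPS30, MRPS31 and MRPS33. The median log2 ratio of the members' medians was 1.06, close to the 1.07 over all genes tested. For 21 ribosome assembly factors it was 1.68, for 53 oxidative phosphorylation genes 0.75 and for 43 cytosolic ribosomal proteins -0.44.

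The 3 low-share libraries held 19933267 to 36897623 counts that were not mitochondrially encoded, against 1187194 to 9002092 in the 8 others. Their oocyte marker level was between 24761 and 37978 CPM, against 60000 to 339700 CPM in the 8 others, and their granulosa marker level between 78.5 and 88.5 CPM, against 64.5 to 20713 CPM in the 8 others. The low-share oocytes were therefore deeper in this sense, lower in oocyte markers and at the low end of granulosa markers. The part of depth and of the oocyte markers in the members' levels was not tested. The stage 1 oocyte of gilt 205 resembled them in level, with 12472 CPM at a mitochondrially encoded share of 18.2%. Its granulosa marker level was 6241 CPM. Oocytes 1 and 4 of gilt 803 at stage 2, also under 20%, did not reach this level. They were at 7804 and 3153 CPM, with shares of 3.71% and 7.85%, and 44 and 19 members were found. The latter library had 151104 counts in all.

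For 6 members the count table held almost nothing, with a mean under 2 CPM of all counts. MRPL49 and MRPS7 had 667 counts each over all 55 oocytes, MRPL24 had 409, MRPL28 had 358, and MRPL43 and MRPL54 had 0, which allows up to 3 counts in a library. The length-scaled table of the same oocytes listed values above 0 for all 6. MRPL43 was above 0 there in 50 oocytes with a median of 3.54, and MRPL54 in 49 oocytes with a median of 6.32, in that table's own unit. MRPL24 was found in 15 oocytes by counts and in 49 by length-scaled value, MRPL49 in 17 and 47, MRPL28 in 19 and 50, and MRPS7 in 22 and 49.

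For the other members listed in both tables the number of oocytes differed by at most 9. In the RefSeq annotation of the pig genome assembly Sscrofa11.1, 4 of these 6 members overlap another protein-coding gene, and 13 of the other 58 do. MRPL49 overlaps SYVN1 and FAU, MRPL28 overlaps TMEM8A, MRPS7 overlaps MIF4GD and GGA3, and MRPL43 overlaps TWNK, the mitochondrial DNA helicase. MRPL24 and MRPL54 overlap none. How reads in overlapping genes were counted is not given in the sources used here, the libraries do not mark strand as far as the labels say, and the part of the overlaps in the low counts was not tested. These 6 members were thus nearly absent from the counts and present in the length-scaled values of the same oocytes.

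**Figure D5:**
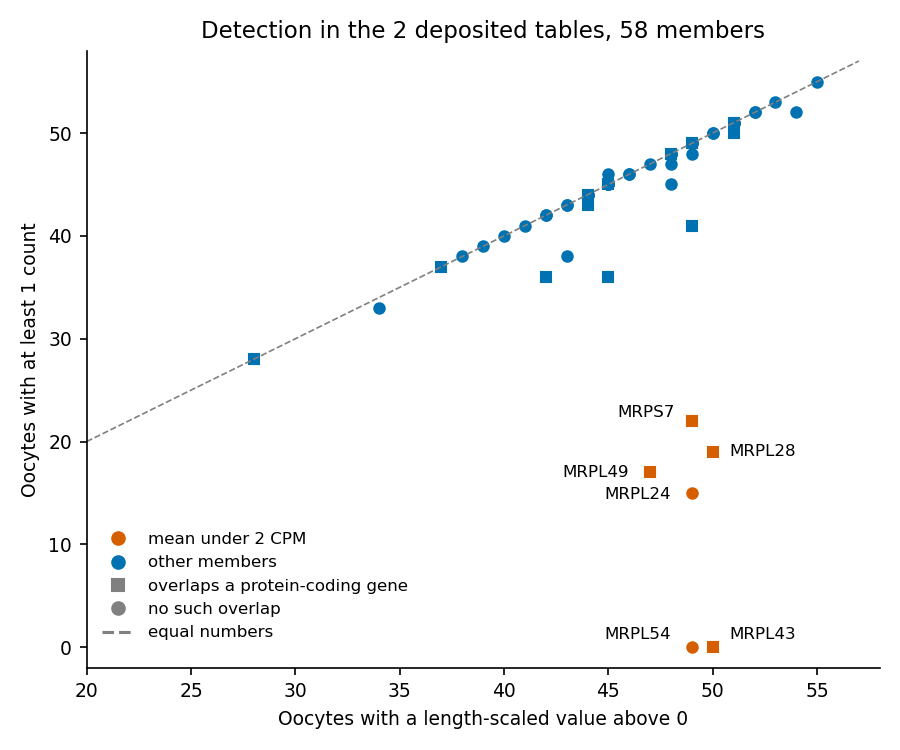
Number of oocytes with at least 1 count against the number with a length-scaled value above 0, for the 58 members listed in both tables, with squares for members that overlap another protein-coding gene. The 6 members with a mean under 2 CPM of all counts (orange) lie at 0 to 22 oocytes by counts and 47 to 50 by length-scaled value, and the others lie within 9 oocytes of the line of equal numbers.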

How the data were processed

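Cytoplasmic RNA of single oocytes was read by Smart-seq2, per the labels' protocols. The authors deposited raw counts per Ensembl gene for 55 oocytes and a length-scaled table whose unit its header names TPM but whose values are treated here as another unit, used for ranks and detection only. The submitters' processing notes name featureCounts, StringTie 1.2.2, HISAT2 2.1.0 and Trim Galore 0.4.3. Genome build and annotation: not given in the sources used here.

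Oocytes sharing a gilt and a stage were added up (19 sums) and fitted with edgeR 4.0.16 (R 4.3.3; filterByExpr by stage, TMM, quasi-likelihood F test, Benjamini-Hochberg over all genes tested, threshold 0.05) with stage and gilt as terms. Oocytes of the same gilt come from the same animal by the labels, which pairs the stages. For the slope the 13 mitochondrially encoded genes were left out of the table and the library sizes, and identifiers without a symbol, 11023 in all, could not be sorted this way. DESeq2 1.42.0, RLE factors, other filters, each oocyte as a library and libraries left out were alternatives. The fits were also run on simulated counts drawn without differences between gilts, unlike the real sums, and that outcome is not used here. Detection at equal depth is the expected number in a random draw. Correlations used log2 values with a pseudocount of 1 and have no p. Intervals and floors cover counting error only. The members, lists and tests were chosen with earlier results of these data known. Named members are the 8 highest, 4 fixed ones, every called member, and the 4 largest fitted values in each direction for stage 5 against stage 1, the trend and the slope among members of at least 10 CPM. Methylation, somatic cells and the remaining oocytes of the 62 in the design text were not analysed here.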

Additional observations from a re-analysis of the deposited data

Results flagged for a closer look

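Gaps to the next value were compared with Dixon's 95% limit in 10 groups of 4 to 10 oocytes, and chance flags about 1 group in 20. MRPL22 reached 761 CPM in oocyte 2 of gilt 803 at stage 5, far above the other 9 oocytes of that stage. This library was granulosa-rich, and the part of that in the value was not tested. In gilt 205 the only stage 1 oocyte had a summed level of the family of 12472 CPM, far above the other 8 oocytes of the gilt, which were at 3308 to 6170 CPM. The same oocyte had a mitochondrially encoded share of 18.2%, far below the others of the gilt. It was also the only stage 1 sum of gilt 205, so the fitted changes between stage 5 and stage 1 rest on it in part. In the length-scaled table, MRPL43 had a value above 0 in 50 oocytes and MRPL54 in 49, although neither had a count in any oocyte.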

How the results depend on the processing

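The count of called members was 0 in each stage comparison under each alternative, the leave-one-out fits included (0 to 0). With gilt left out of the model, that is with no replicate block, it was 0 as well for the stages, the trend and the slope. Among gilts, MRPS12 was the 1 member called under 3 alternatives. DESeq2 called 1006 of 13211 genes there, and the fit with no filter on low counts called 935 of 23035. When oocytes were fitted singly, 873 of 12041 genes were called among gilts, with 60 members tested. Fitted singly, MRPS12 was also the 1 member of 59 called for the slope, where 130 of 11227 genes were called. The spread between sums limited the fits, with a common coefficient of variation of 1.24, and TMM factors ran from 0.270 to 3.59. Leaving out the oocytes under 1000000 counts changed no count of called members, and the part of depth was not tested further.

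Pearson's r of the family with the mitochondrial ratio was -0.90 in gilt 201, -0.95 in gilt 801 and -0.80 in gilt 803 per 1000000 of all counts, and -0.40 in gilt 205 and -0.32 in gilt 801 without the low-share libraries, an alternative chosen after seeing the data. Per 1000000 of all counts the stage medians were 1227 CPM at stage 2, 1012 CPM at stage 3 and 920 CPM at stage 5.

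The sign of 11 uncalled fitted values of named members turned under at least 1 alternative, and the cause was not tested. With no replicate block the change of MRPS12 was 0.63 for stage 5 against stage 1 and 0.15 for the trend, and the slope of MRPL50 was -0.042. With each oocyte as a library the slopes of MRPL50, MRPS10 and MRPS2 were -0.15, -0.042 and -0.24, and the trend of MRPS12 was 0.049. Without granulosa-rich libraries the slope of MRPS22 was -0.13, the change of MRPL46 -0.11 and the trend of MRPS2 -0.10. Without the low-share libraries the slope of MRPS22 was -0.042 and the trend of MRPS12 0.16. With each gilt left out in turn, the slope of MRPS22 lay between -0.064 and 0.22. The change between stage 5 and stage 1 lay between -2.47 and 0.0056 for MRPL34, -0.44 and 2.69 for MRPL46, -0.55 and 3.13 for MRPL47, and -2.94 and 0.24 for MRPS12, and the trend between -0.14 and 0.67 for MRPL47 and -0.64 and 0.069 for MRPS12.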

Other observations

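Single oocytes held much of what was measured of some members. MRPL38, a mitochondria-specific large-subunit protein, had 45.5% of its summed CPM over 55 oocytes in 1 oocyte, where it stood at 1860 CPM, and that library, oocyte 4 of gilt 803 at stage 2, had 151104 counts in all. MRPS5 had 27.9% of its summed CPM in oocyte 1 of gilt 803 at stage 1. There it had 165 counts in a granulosa-rich library of 343284 counts in all. MRPS12 had 25.6% in oocyte 1 of gilt 803 at stage 5, also a granulosa-rich library. At the other end, the highest oocyte of MRPS10 held 5.48% of its summed CPM. For 10 of the 62 detected members the highest oocyte was oocyte 2 of gilt 803 at stage 5, a granulosa-rich library.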
